A study of Mus musculus with 21 samples.

Results

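Of the 40330 probes on a protein binding microarray, 35 carried a hybrid of the PAR and C/EBP sites in their 35 variable bases. The hybrid joins the first 4 bases of the PAR palindrome TTACGTAA to the last 4 bases of the C/EBP palindrome TTGCGCAA. It is not a palindrome, so a probe presents it as TTACGCAA or as its reverse complement TTGCGTAA, and the probes were chosen by these letters alone, without any measured value. On the strand made by primer extension, 18 probes read TTACGCAA and 17 read TTGCGTAA. No probe carried the site more than once or also held either palindrome.

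A protein binding microarray measures in vitro how strongly a labelled protein binds each of many short double-stranded DNA probes at the same time. The proteins were DNA-binding domains with a GST tag, made by in vitro transcription and translation from plasmids, of CEBPB, CREB1 and a point mutant of each, CEBPB(V285A) and CREB1(A297V). The single-stranded probes were made double-stranded with 5-methylcytosine (5mC), 5-hydroxymethylcytosine (5hmC) or cytosine (C), which leaves the modified base on the synthesised strand and plain cytosine on the printed strand. The 21 arrays fell into 10 groups, which were CEBPB(V285A) on 5mC, 5hmC and C with 2 arrays each, CREB1(A297V) on 5mC with 2, on 5hmC with 4 and on C with 2, CEBPB on 5hmC with 2, and CREB1 on 5mC with 1, on 5hmC with 2 and on C with 2. The domains were assayed alone, without the rest of the protein, without a partner and without chromatin.

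CEBPB and CREB1 are basic leucine zipper (bZIP) transcription factors. They bind DNA as dimers, and the basic region of each subunit contacts one side of the site in the major groove. C/EBP proteins are known for the palindrome TTGCGCAA, CREB1 for the cyclic AMP response element (CRE) TGACGTCA, and the PAR family for TTACGTAA. The 2 mutations exchange valine and alanine in the basic region. All these sites have CG in their centre, the dinucleotide that is methylated in mammalian genomes. The hybrid therefore joins a PAR-type side to a C/EBP-type side, and each of its strands carries the central CG cytosine in a different setting. On the strand that reads TTACGCAA, 2 cytosines lie in the site, the central one and the one that starts the C/EBP-type CAA end. On the strand that reads TTGCGTAA, only the central cytosine does, so the 2 orientations placed different numbers of modified bases in the site.

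Signal is given as relative signal, the deposited median intensity of a probe's spot divided by the median over all spots of the same array, so that the middle probe of an array is at 1. By construction 1% of all probes lie above the array's 99th percentile. Relative signal ranks probes within an array and does not measure affinity. The synthesised strand was taken to be the reverse complement of the listed sequence, because the listed sequence is followed by the constant linker from which the second strand is primed. That reading was assumed and not tested here, and under the opposite reading the names of the 2 orientations would trade places. The median intensity of an array lay between 76.0 and 2357.5, and replicate arrays of a group correlated with a Pearson r across all probes of 0.343 to 0.923, lowest for CREB1(A297V) on 5hmC. Of the 735 spots of the hybrid probes, 9 were saturated, on 4 arrays, and 14 lay below their local background, on 5 arrays. Array intensities carry no count from which an interval could be taken, so the number of arrays limits the precision. The labels do not say whether replicate arrays used protein made separately, so p-values measure only the spread between these arrays, which may be technical. The file names share a number that is called a run here. Nothing in the labels says what it marks. The largest run held 9 arrays, all of CREB1 and CREB1(A297V).

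The sequences below are the synthesised strands, written 5′ to 3′ from the linker end to the free tip, with the hybrid site in capitals. The first set shows TTACGCAA probes, the 3 with the highest mean over all groups first, followed by those that changed most with 5mC or 5hmC or between proteins.
HK00624: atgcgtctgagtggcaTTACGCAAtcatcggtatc
HK02455: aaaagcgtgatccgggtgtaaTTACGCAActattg
HK25130: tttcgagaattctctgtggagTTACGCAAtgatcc
HK13052: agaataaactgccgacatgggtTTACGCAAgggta
HK07000: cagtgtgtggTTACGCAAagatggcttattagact
HK25094: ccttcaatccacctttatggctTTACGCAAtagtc
HK38880: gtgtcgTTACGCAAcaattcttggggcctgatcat
HK32660: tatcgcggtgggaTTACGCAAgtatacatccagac
HK21564: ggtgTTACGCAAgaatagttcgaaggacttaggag
HK20368: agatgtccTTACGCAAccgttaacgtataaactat
HK33892: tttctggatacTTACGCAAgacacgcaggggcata
HK19037: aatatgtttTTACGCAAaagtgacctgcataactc
The second set shows TTGCGTAA probes, the 3 with the highest mean first, then those that changed most and the 2 with the lowest mean.
HK18477: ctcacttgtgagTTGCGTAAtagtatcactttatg
HK36697: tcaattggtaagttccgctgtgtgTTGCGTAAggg
HK09415: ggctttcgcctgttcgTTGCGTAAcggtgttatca
HK07234: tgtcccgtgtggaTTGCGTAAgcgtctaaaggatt
HK28185: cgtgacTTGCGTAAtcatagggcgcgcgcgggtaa
HK24728: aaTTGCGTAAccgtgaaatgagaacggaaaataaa
HK17661: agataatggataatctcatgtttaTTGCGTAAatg
HK31823: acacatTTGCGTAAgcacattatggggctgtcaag
HK39560: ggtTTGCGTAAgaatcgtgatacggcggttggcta
The third set shows 3 pairs of probes in which the site with its neighbouring base sits next to the linker in the first and at the free tip in the second. Each pair places the same 9 letters at opposite ends.
HK34124: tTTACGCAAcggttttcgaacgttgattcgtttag
HK34125: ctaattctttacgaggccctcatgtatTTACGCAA
HK38506: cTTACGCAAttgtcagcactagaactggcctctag
HK38507: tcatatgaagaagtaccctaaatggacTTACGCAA
HK03348: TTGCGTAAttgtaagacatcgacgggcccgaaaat
HK03349: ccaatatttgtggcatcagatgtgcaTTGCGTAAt

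The level of the hybrid probes differed between proteins. On CEBPB(V285A) arrays the median TTACGCAA probe stood at 38.6 and 36.6 times the array median with 5mC, at 11.6 and 8.66 with 5hmC and at 17.4 and 11.3 with C. For the TTGCGTAA probes the medians were 6.27 and 7.05 with 5mC, 6.82 and 4.02 with 5hmC and 10.0 and 8.76 with C. On CREB1(A297V) arrays, TTACGCAA probes had medians of 2.25 and 2.40 with 5mC, between 1.26 and 1.58 on the 4 arrays with 5hmC, and 2.10 and 2.28 with C. Their TTGCGTAA medians were 2.44 and 2.84, between 1.13 and 1.61, and 2.04 and 2.03 on the same forms in the same order. The medians of the 2 orientations lay close together on every CREB1(A297V) array and far apart on both CEBPB(V285A) 5mC arrays.

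CEBPB was assayed on 5hmC alone, and there TTACGCAA probes had medians of 3.19 and 3.35 and TTGCGTAA probes of 6.07 and 7.47. CREB1 gave TTACGCAA medians of 3.84 with 5mC, 4.41 and 5.03 with 5hmC and 2.31 and 2.38 with C. Its TTGCGTAA medians were 1.41 with 5mC, 1.62 and 1.50 with 5hmC and 1.60 and 2.10 with C. On CREB1 the TTACGCAA medians with modified cytosine lay above both C arrays, and the TTGCGTAA medians with 5mC lay below both.

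The ratio of the TTACGCAA median to the TTGCGTAA median summarises this asymmetry within an array, where scaling cancels. It was 6.15 and 5.20 for CEBPB(V285A) on 5mC, 1.70 and 2.15 on 5hmC and 1.73 and 1.29 on C. For CREB1 it was 2.73 on the 5mC array, 2.71 and 3.36 on 5hmC and 1.44 and 1.13 on C. On CEBPB 5hmC arrays it was 0.524 and 0.448, below 1 on both, so TTGCGTAA was the stronger orientation there. The 8 CREB1(A297V) arrays lay between 0.845 and 1.21. The ratio kept its side of 1 on every array after quantile normalization, which gives all arrays the same distribution of values, and after normexp background correction, which uses the local background of each spot, on every array except CREB1(A297V) C replicate 1, where it was 0.846 against 1.03. These ratios compare different probes and are given without a test.

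Against the whole array, 13 and 14 of the 18 TTACGCAA probes lay above the 99th percentile on the 2 CEBPB(V285A) 5mC arrays, 11 and 13 on 5hmC and 9 and 9 on C. On CREB1 arrays these were 12 of 18 with 5mC, 8 and 8 with 5hmC and 5 and 2 with C. Of the 17 TTGCGTAA probes, 9 and 10 passed that level on CEBPB 5hmC arrays and 0 on each of the 5 CREB1 arrays. On CREB1(A297V) arrays 4 to 6 TTACGCAA probes and 0 to 7 TTGCGTAA probes did so.

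The strongest TTACGCAA probe was HK00624. It stood at 66.8 and 71.1 on CEBPB(V285A) 5mC arrays, both saturated, at 66.7 and 63.0 on 5hmC and at 76.2 and 63.9 on C. On CREB1(A297V) arrays it stood at 15.2 and 19.1 with 5mC, at 8.93, 10.5, 5.55 and 9.17 with 5hmC and at 11.9 and 8.67 with C. It was at 14.4 and 23.2 on CEBPB 5hmC, at 29.8 on the CREB1 5mC array, at 43.8 and 38.8 on CREB1 5hmC and at 7.34 and 9.97 on CREB1 C. It lay above the 99th percentile on all 21 arrays.

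HK02455 and HK25130 followed, with 60.5 ± 8.75 and 62.2 ± 1.28 on CEBPB(V285A) C (mean ± SD, n = 2). At the other end were HK34125 and HK38507, whose site ends at the free tip. HK38507 lay between 0.905 and 2.49 on the CEBPB(V285A) arrays and between 1.12 and 1.33 on CREB1 arrays. Probes with the same 8 letters thus ran from near the array median to saturation on the same array.

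Among TTGCGTAA probes, HK18477 was the highest. It stood at 36.9 and 49.3 on CEBPB(V285A) 5mC, 23.8 and 34.99 on 5hmC and 57.9 and 50.2 on C, and at 44.1 and 43.3 on CEBPB 5hmC. On CREB1 it was at 2.14 with 5mC, 2.83 and 2.83 with 5hmC and 2.29 and 3.48 with C, below the 99th percentile on all 5 arrays. HK36697 and HK09415 had the next highest means over all groups, with 30.2 ± 2.81 and 43.7 ± 5.45 on CEBPB(V285A) C (SD, n = 2). The lowest over all groups were HK31823 at 2.70 ± 0.297 and HK39560 at 2.79 ± 0.392 on CEBPB(V285A) C, both with T before the site.

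For CEBPB(V285A), 5mC against C separated the orientations. Of the 18 TTACGCAA probes 9 rose and 0 fell, while of the 17 TTGCGTAA probes 0 rose and 3 fell. Over all probes 10.4% rose and 10.1% fell in this comparison. The share of TTGCGTAA probes that fell was thus not far above that of all probes. The median log2 difference was 0.86 for TTACGCAA and -0.39 for TTGCGTAA probes, against -0.05 for all probes. These calls are from limma on log2 relative signal, with two-sided p-values corrected for all 40330 probes by Benjamini and Hochberg's procedure and called under 0.05.

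The largest rise was at HK13052, which had 44.3 and 35.1 on the 5mC arrays and 6.48 and 6.03 on the C arrays. HK07000 had 32.0 and 46.4 on 5mC and 5.68 and 6.68 on C. Both 5mC arrays were several-fold above both C arrays at each probe. The fitted folds were 6.30 (log2 difference 2.66 ± 0.34 SE, limma adjusted p = 3.8e-06) for HK13052 and 6.26 (2.65 ± 0.28 SE, adjusted p = 4.1e-07) for HK07000. Of the TTACGCAA probes with the site within 3 bases of an end, 5 of 6 rose, and of those farther in, 4 of 12.

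A ceiling limited this comparison at the strongest probes. HK00624, HK02455 and HK25130 were saturated on both 5mC arrays and on neither C array, so their 5mC level is only a lower bound. The fitted ratio of 5mC to C was at least 1.14 for HK02455 and at least 1.11 for HK25130, and no bound above 1 was had for HK00624. None of these probes was called (limma adjusted p from 0.85 to 0.99), so no rise was shown at them. HK25094 was saturated on 1 of the 2 5mC arrays and was at least 3.16-fold higher (66.8 and 62.8 on 5mC, 27.2 and 15.5 on C, limma adjusted p = 0.025). The 9 TTACGCAA probes that rose had mean levels on C of 1.10 to 21.9, and the 9 that were not called had 7.39 to 70.1.

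The TTGCGTAA probes that fell with 5mC were HK28185, HK24728 and HK03348. HK28185 had 4.96 and 6.65 on 5mC and 27.5 and 25.6 on C, a fall to 0.216 of the C level (log2 difference -2.21 ± 0.45 SE, limma adjusted p = 7.8e-04). HK24728 had 4.97 and 7.38 on 5mC and 17.3 and 19.1 on C (-1.58 ± 0.32 SE, adjusted p = 7.5e-04). HK03348 had 5.09 and 7.05 on 5mC and 13.9 and 16.5 on C (-1.34 ± 0.33 SE, adjusted p = 0.0044). All 3 have T or C after the site on the synthesised strand, and of all 17 TTGCGTAA probes 5 have T there and 4 have C. Not every strong TTGCGTAA probe was lower, since HK36697 had 39.2 and 38.0 on 5mC and 32.2 and 28.2 on C and was not called. After quantile normalization between arrays 4 members were called higher and 1 lower, and after normexp background correction 5 higher and 4 lower. Over all probes 7.93% and 18.3% were called in these settings, against 20.5% in the main fit. The 5mC and C arrays of CEBPB(V285A) lay in different runs, as numbered in the file names, and the effects of the run and of the modification cannot be told apart here. HK24728 was not called after quantile normalization (adjusted p = 0.059).

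With 5hmC against C, CEBPB(V285A) had lower signal at TTGCGTAA probes more often than at TTACGCAA probes. Of the 18 TTACGCAA probes 0 rose and 3 fell, and of the 17 TTGCGTAA probes 0 rose and 7 fell. Over all probes 4.33% rose and 10.2% fell. The share of TTACGCAA probes that fell was thus not far above that of all probes. The median log2 difference was -0.21 for TTACGCAA and -0.88 for TTGCGTAA probes, against 0.06 for all probes.

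HK07234 fell furthest, with 6.82 and 13.1 on 5hmC and 48.0 and 45.9 on C (log2 difference -2.31 ± 0.44 SE, limma adjusted p = 6.4e-04). HK28185 had 13.7 and 3.16 on 5hmC and 27.5 and 25.6 on C (-2.02 ± 0.45 SE, adjusted p = 0.0029), and without CEBPB(V285A) 5hmC replicate 2 it was no longer called (-0.96, adjusted p = 0.12). The groups did not overlap at either probe, although the 5hmC arrays differed several-fold at HK28185. The 3 TTACGCAA probes that fell were HK19037, HK11381 and HK33892, by 1.72, 1.44 and 1.23 on the log2 scale. The strongest TTACGCAA probes were not called, with HK00624 at 66.7 and 63.0 on 5hmC and 76.2 and 63.9 on C. The count of 10 fell to 5 without CEBPB(V285A) C replicate 1, to 4 without CEBPB(V285A) 5hmC replicate 2 (1 higher, 3 lower) and to 0 after quantile normalization. After that normalization 6.91% of all probes were called, against 14.5% in the main fit. These 2 comparisons of CEBPB(V285A) share their C arrays, and here too the run cannot be told apart from the modification. Neither HK07234 nor HK28185 was called after quantile normalization (adjusted p = 0.27 and 0.40).

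For CREB1, 5hmC against C raised TTACGCAA probes. Of 18, 13 rose and 0 fell, while 0 of the 17 TTGCGTAA probes rose and 2 fell. Over all probes 9.01% rose and 8.3% fell, so the share of hybrid probes that fell was near that of all probes. The median log2 difference was 1.16 for TTACGCAA and -0.22 for TTGCGTAA probes, against 0.02 for all probes.

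HK25094 had 35.7 and 42.4 on 5hmC, the second value saturated, and 3.14 and 4.31 on C, and rose at least 10.6-fold (fitted log2 difference 3.40 ± 0.52 SE, limma adjusted p = 1.1e-04). HK38880 had 17.2 and 22.3 on 5hmC and 2.88 and 2.84 on C (2.77 ± 0.40 SE, adjusted p = 6.1e-05). HK25130, with 46.6 and 31.8 on 5hmC, the first saturated, and 5.10 and 6.40 on C, rose at least 6.74-fold. At all 3 probes both 5hmC arrays stood far above both C arrays. The 13 that rose had mean levels on C of 0.944 to 8.66, and the 5 that were not called had 1.22 to 2.13.

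HK32660, a strong probe for CEBPB(V285A), was among those 5, with 2.07 and 4.68 on 5hmC and 2.42 and 1.84 on C. The TTGCGTAA probes that fell were HK07234, with 1.19 and 0.978 on 5hmC and 2.88 and 2.37 on C (-1.28 ± 0.44 SE, limma adjusted p = 0.048), and HK24728, with 1.10 and 1.04 on 5hmC and 2.28 and 2.26 on C (-1.09 ± 0.32 SE, adjusted p = 0.022). Both lay near the array median on 5hmC. Neither call held without any one of the 4 CREB1 arrays compared (adjusted p from 0.089 to 0.23) or after quantile normalization. HK07234 also lost its call without either CEBPB(V285A) C, CREB1(A297V) 5mC or CREB1(A297V) C array, or without CREB1(A297V) 5hmC replicate 2 (adjusted p from 0.055 to 0.061). The count of 15 was 7 without CREB1 5hmC replicate 1, 9 without CREB1 C replicate 1 and 6 after quantile normalization. The 5hmC and C arrays of CREB1 also lay in different runs, which cannot be told apart from the modification.

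CREB1 on 5mC was a lone array, assumed in the fit to vary like the other groups. By limma no hybrid probe was called against C, in either orientation, where 1.3% of all probes rose and 1.51% fell. At an unadjusted p under 0.05, 7 TTACGCAA and 3 TTGCGTAA probes passed. The share of all probes at that unadjusted level was not taken. The log2 difference was above 0 for 17 of 18 TTACGCAA probes (median 0.76, highest 2.25) and for 2 of 17 TTGCGTAA probes (median -0.51), against a median of 0.01 for all probes. HK25094 was at 17.5 on 5mC and at 3.14 and 4.31 on C, and HK00624 at 29.8 on 5mC and 7.34 and 9.97 on C. The counts of calls that follow are given without the share of all probes called in the same settings. They thus have no background to be read against. With only the arrays of the run that holds both groups in the fit, 5 members were called, all higher, and after quantile normalization also 5. Without either CEBPB 5hmC array 1 member was called.

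Of all spots, 23.0% and 16.2% lay below their local background on the CREB1(A297V) 5mC arrays, 25.1%, 56.0%, 24.4% and 0.0372% on the 5hmC arrays, and 1.74% and 3.02% on the C arrays. Their part in the counts that follow was not tested. For CREB1(A297V), limma called 0 of 35 hybrid probes with 5mC against C, where 0.136% of all probes rose and 0.114% fell. It also called 0 with 5hmC against C, where 0.0149% rose and 0.645% fell. At an unadjusted p under 0.05 these comparisons gave 4 probes, all TTGCGTAA, and 9 probes, 2 of them TTACGCAA. The share of all probes passing without adjustment was not taken, so these counts have no background to be read against. The median log2 differences with 5mC were 0.23 for TTACGCAA and 0.28 for TTGCGTAA probes, and with 5hmC -0.33 and -0.49. HK25130 had 5.61 and 12.7 on 5mC, 4.91, 6.16, 4.59 and 8.16 on 5hmC and 4.84 and 7.54 on C, so that all 3 groups overlapped. Without CREB1(A297V) 5hmC replicate 4, 1 probe was called lower with 5hmC, and after normexp 3 were. The share of all probes called in these settings is not set beside these counts.

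The interaction contrasts tested whether a modification acted differently in a mutant and in CREB1. For 5hmC, 11 TTACGCAA probes and 1 TTGCGTAA probe, HK17300 (-1.55), were called lower in CEBPB(V285A) than in CREB1 and 0 higher, where 1.78% of all probes were called higher and 6.5% lower. At HK19037 the log2 effects of 5hmC differed by -3.57 ± 0.60 SE (limma adjusted p = 5.8e-04). At HK25094 they differed by -3.62 ± 0.73 SE (adjusted p = 0.0030) or more in size, since 1 of its 2 CREB1 5hmC values was saturated. HK19037 had 3.30 and 2.43 on CEBPB(V285A) 5hmC and 13.7 and 6.34 on C, and 13.6 and 13.8 on CREB1 5hmC and 4.11 and 3.48 on C. The 5hmC arrays were thus the lower ones in the mutant and the higher ones in CREB1. The count of 12 was 7 without CEBPB(V285A) C replicate 1 and 2 after quantile normalization.

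The same test for CREB1(A297V) called 8 TTACGCAA and 0 TTGCGTAA probes lower than in CREB1 and 0 higher, against 1.35% of all probes higher and 2.97% lower. HK38880 differed by -3.37 ± 0.53 SE (limma adjusted p = 4.7e-04). HK25094 differed by -3.83 ± 0.69 SE (adjusted p = 0.0017) or more in size, with 1 of its 2 CREB1 5hmC values saturated. All 8 sites lay 4 or more bases from both ends, as did 12 of all 18 TTACGCAA sites. The count was 3 without CREB1(A297V) C replicate 2 or CREB1 5hmC replicate 1, 4 without CREB1(A297V) C replicate 1, 5 without either CREB1 C array and 2 after quantile normalization.

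For 5mC, 2 TTACGCAA probes, HK34124 (2.02 ± 0.49 SE, limma adjusted p = 0.025) and HK07000 (1.98 ± 0.45 SE, adjusted p = 0.015), were called higher in CEBPB(V285A) than in CREB1, and 0 lower, where 2.56% of all probes were called higher and 0.625% lower. HK07000 had 32.0 and 46.4 on CEBPB(V285A) 5mC and 5.68 and 6.68 on C, against 2.51 on CREB1 5mC and 1.60 and 1.58 on C. The count was 0 without CEBPB(V285A) C replicate 1, after normexp or after quantile normalization, and 1 without CREB1 C replicate 2 or CEBPB(V285A) 5mC replicate 2. CREB1(A297V) against CREB1 gave 0 calls for 5mC by limma, where 0.255% of all probes were called higher and 0.136% lower, and 4 probes at an unadjusted p under 0.05. These contrasts share the CREB1 arrays, and in those for 5hmC and those for CEBPB(V285A) the run cannot be told apart from the groups. The share of all probes at the unadjusted level was not taken here either.

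Between the proteins on C, CEBPB(V285A) was higher than CREB1 at nearly all hybrid probes. It was called higher at 15 of 18 TTACGCAA and 16 of 17 TTGCGTAA probes and lower at none, where 5.42% of all probes were called higher and 0.295% lower. The median log2 difference was 2.51 and 2.35 in the 2 orientations, against 0.02 for all probes. HK18477 had 57.9 and 50.2 on CEBPB(V285A) and 2.29 and 3.48 on CREB1, 19.1-fold higher (4.26 ± 0.59 SE, limma adjusted p = 7.5e-05). HK07234 had 48.0 and 45.9 on CEBPB(V285A) and 2.88 and 2.37 on CREB1 (4.17 ± 0.44 SE, adjusted p = 2.3e-06).

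The 4 probes that were not called were HK34125, HK38507, HK19037 and HK23534. HK19037 had 13.7 and 6.34 on CEBPB(V285A) and 4.11 and 3.48 on CREB1. After quantile normalization 13 members were called, all higher, and HK07234 was not among them (adjusted p = 0.057). On 5mC, CEBPB(V285A) was called higher than CREB1 at 11 TTACGCAA and 15 TTGCGTAA probes and lower at none, where 8.08% of all probes were called higher and 0.32% lower. HK36697, with 39.2 and 38.0 on CEBPB(V285A) and 1.90 on CREB1, was 20.3-fold higher (4.34 ± 0.40 SE, adjusted p = 2.8e-07).

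HK18477 on 5mC had 36.9 and 49.3 on CEBPB(V285A) and 2.14 on CREB1 (4.32 ± 0.72 SE, limma adjusted p = 2.9e-04). The saturated probes HK00624, HK02455 and HK25130 were at least 2.32-, 3.62- and 3.30-fold higher and were not called (adjusted p = 0.28, 0.051 and 0.11). After quantile normalization 1 member was called on 5mC, and HK18477 was not (adjusted p = 0.32). The CEBPB(V285A) arrays shared no run with CREB1 arrays, so run and protein cannot be told apart in these comparisons.

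On 5hmC most hybrid probes of both orientations were also higher on CEBPB(V285A) than on CREB1, TTGCGTAA probes by more. The log2 difference was above 0 for 13 of 18 TTACGCAA probes (median 0.56) and for 16 of 17 TTGCGTAA probes (median 1.81). Over all probes its median was 0.04. CEBPB(V285A) was called higher than CREB1 at 6 TTACGCAA and 12 TTGCGTAA probes and lower at 2 and 0, where 5.43% of all probes were called higher and 5.89% lower. HK32660 had 34.6 and 80.7 on CEBPB(V285A) and 2.07 and 4.68 on CREB1 (4.09 ± 0.45 SE, limma adjusted p = 4.3e-06). HK21564 had 29.7 and 28.7 on CEBPB(V285A) and 2.51 and 2.70 on CREB1 (3.49 ± 0.31 SE, adjusted p = 5.0e-07). Both CEBPB(V285A) arrays stood far above both CREB1 arrays at these probes.

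The TTACGCAA probes lower in CEBPB(V285A) were HK19037, with 3.30 and 2.43 against 13.6 and 13.8 on CREB1 (-2.27 ± 0.42 SE, limma adjusted p = 9.6e-04), and HK34125, with 1.05 and 1.22 against 2.28 and 2.73 (-1.14 ± 0.20 SE, adjusted p = 6.2e-04). The call at HK19037 was lost after quantile normalization (adjusted p = 0.084).

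CREB1(A297V) against CREB1 differed by the form of cytosine. Counts from the shared run or with an array left out are given here without the share of all probes called there. On C, 1 TTACGCAA probe was called lower and 0 members higher, where 0.888% of all probes were called higher and 3.01% lower, so the hybrid probes were called about as often as all probes. That probe, HK33892, had 1.54 and 1.73 on CREB1(A297V) and 5.35 and 4.46 on CREB1 (-1.58 ± 0.33 SE, limma adjusted p = 0.0059), and its call was lost without CREB1 C replicate 1 (adjusted p = 0.063) or CREB1(A297V) C replicate 1 (0.069). On 5mC, 1 TTGCGTAA probe was called higher and 0 members lower, where 0.181% of all probes were called higher and 0.64% lower. That probe, HK17661, had 2.89 and 3.88 on CREB1(A297V) and 1.01 on CREB1 (1.73 ± 0.38 SE, adjusted p = 0.030), and was not called without 1 or the other CREB1(A297V) 5mC array (0.071 and 0.23). Without either CEBPB(V285A) 5hmC array 2 members were called (1 higher, 1 lower). The shared run gave 1 call on C and 4 on 5mC (3 higher, 1 lower).

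On 5hmC, CREB1(A297V) was called lower than CREB1 at 15 TTACGCAA probes and 1 TTGCGTAA probe, HK30139 (-0.77), and higher at none, where 7.75% of all probes were called higher and 12.1% lower. HK38880 had 1.53, 1.50, 1.25 and 1.31 on CREB1(A297V) and 17.2 and 22.3 on CREB1 (-3.81 ± 0.35 SE, limma adjusted p = 9.7e-08). HK25094 had 5.26, 3.96, 2.17 and 2.25 on CREB1(A297V) and 35.7 and 42.4 on CREB1, the last saturated, so the fitted difference is a bound (-3.61 ± 0.45 SE, adjusted p = 5.0e-06). All 4 CREB1(A297V) arrays lay below both CREB1 arrays at these probes. At HK34124, also called lower, the groups overlapped. The count of 16 was 10 without CREB1 5hmC replicate 1, and after quantile normalization 2 members were higher and 8 lower. The 5hmC arrays of these proteins shared no run, so run and protein cannot be told apart here.

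Wild-type CEBPB could be set against the others on 5hmC. CEBPB(V285A) was called higher than CEBPB at 11 TTACGCAA probes and lower at 1, and higher at 1 TTGCGTAA probe and lower at 0, where 4.0% of all probes were called higher and 5.91% lower. HK32660 had 34.6 and 80.7 on CEBPB(V285A) and 2.64 and 5.67 on CEBPB, 13.6-fold higher (3.77 ± 0.45 SE, limma adjusted p = 7.6e-06). HK20368 had 22.9 and 11.3 on CEBPB(V285A) and 2.56 and 1.53 on CEBPB (3.02 ± 0.39 SE, adjusted p = 1.4e-05). The TTGCGTAA probe called higher was HK17300 (1.13 ± 0.32 SE, adjusted p = 0.024).

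HK19037 was the TTACGCAA probe called lower in CEBPB(V285A), with 3.30 and 2.43 against 14.1 and 4.34 on CEBPB (-1.46 ± 0.42 SE, limma adjusted p = 0.029). The CEBPB arrays lay far apart there, and without CEBPB 5hmC replicate 1 the difference was -0.61 (adjusted p = 0.61). The call was also lost without either CEBPB(V285A) 5hmC array (adjusted p = 0.060 and 0.21), after normexp (0.059) and after quantile normalization (0.21). The median log2 difference was 1.68 for TTACGCAA and -0.29 for TTGCGTAA probes. The strongest TTGCGTAA probe, HK18477, had 23.8 and 34.99 on CEBPB(V285A) and 44.1 and 43.3 on CEBPB and was not called. CEBPB(V285A) and CEBPB lay in different runs, which cannot be told apart from the mutation.

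CEBPB against CREB1 on 5hmC, which shared a run, was called higher at 0 TTACGCAA and 12 TTGCGTAA probes and lower at 5 and 0, where 8.08% of all probes were called higher and 8.17% lower. HK07234 had 20.5 and 20.3 on CEBPB and 1.19 and 0.978 on CREB1, 18.9-fold higher (4.24 ± 0.44 SE, limma adjusted p = 6.1e-07). HK18477 had 44.1 and 43.3 on CEBPB and 2.83 and 2.83 on CREB1 (3.95 ± 0.59 SE, adjusted p = 4.4e-05). Both CEBPB arrays stood far above both CREB1 arrays at these probes.

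The TTACGCAA probes lower in CEBPB were HK20368, HK25094, HK33892, HK38880 and HK34125. HK20368 had 2.56 and 1.53 on CEBPB and 15.4 and 17.3 on CREB1 (-3.05 ± 0.39 SE, limma adjusted p = 6.4e-06). HK25094 had 13.7 and 5.01 on CEBPB and 35.7 and 42.4 on CREB1, the last saturated, and was lower by at least the fitted difference (-2.23 ± 0.52 SE, adjusted p = 0.0038). Its call was lost without CEBPB 5hmC replicate 2 (adjusted p = 0.096) and with only these 4 arrays in the fit (0.15), where 16 of the members were called. The probes called higher in CEBPB were thus all TTGCGTAA and those called lower all TTACGCAA, with 13 TTACGCAA probes not called.

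The bases next to the site went with large differences in level among probes of 1 orientation. Each orientation held 15 of the 16 combinations of 5′ and 3′ flanking base, mostly with a single probe each. Among TTACGCAA probes, the 4 with T after the site had the highest median of the 3′ bases on all 21 arrays, for example 66.9 against 22.8 for the 3 with A on CEBPB(V285A) 5mC, and 39.1 against 5.68 on CREB1 5hmC. The 4 with A before the site had the highest median of the 5′ bases on 20 of 21 arrays. HK00624, which reads ATTACGCAAT, has both.

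For TTGCGTAA probes the base before the site went with the larger differences. The 4 with G before the site had the highest median on 20 of 21 arrays and the 5 with T the lowest on 19, with 36.9 against 2.79 on CEBPB(V285A) C and 12.5 against 2.17 on CEBPB 5hmC. The 3′ base that was highest varied between arrays, A being highest on 9 and lowest on 9. After TTACGCAA, G had the lowest median of the 3′ bases on 12 arrays and A on 9. Each of these medians rests on 3 to 5 probes that also differ in all other bases, so they are descriptions.

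The place of the site in the probe went with the level for TTACGCAA. Its 6 probes with the site within 3 bases of an end had a lower median than the 12 with the site farther in on all 21 arrays, with 11.2 against 53.2 on CEBPB(V285A) 5mC, 3.16 against 23.5 on 5hmC and 4.44 against 25.8 on C. Among these 6 end probes only HK29141 has A or G before the site, so place and 5′ base overlap and were not separated. For TTGCGTAA the 6 end probes had the higher median on 15 of 21 arrays, with 7.28 against 5.80 on CEBPB(V285A) 5mC and 11.9 against 9.40 on C. Across the TTACGCAA probes, Spearman's rho of level with distance from the linker lay near 0 for CEBPB(V285A) (0.07 on 5mC and -0.04 on C), where the low probes lay at both ends. Over all groups rho lay between -0.04 and 0.46 for TTACGCAA and between 0.02 and 0.67 for TTGCGTAA probes, highest on CREB1(A297V) 5hmC and CREB1(A297V) 5mC.

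Each of the 3 pairs carries the same 9 letters at opposite ends, and its members differ in their other bases. HK34124, with the site 1 base from the linker, had 13.5 and 20.2 on CEBPB(V285A) 5mC, and HK34125, with the site at the tip, had 2.28 and 1.88. HK38506 near the linker had 20.0 and 22.9 and HK38507 at the tip 1.83 and 2.49. In these TTACGCAA pairs the probe near the linker was higher on 12 and 13 of 21 arrays, with ratios from 0.510 to 10.7 and 0.563 to 10.9. On arrays where the proteins bound the site little, both members were near 1.

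The TTGCGTAA pair behaved otherwise. HK03348, whose site adjoins the linker, had 5.09 and 7.05 on CEBPB(V285A) 5mC, and HK03349, with the site 1 base from the tip, had 7.87 and 8.95. The tip probe was higher on 14 of 21 arrays. The part of the other bases in these differences was not tested.

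The ranking of the probes was largely shared between proteins for TTACGCAA. Spearman's rho between group means across the 18 probes was 0.686 to 0.969 for the 36 pairs of groups without CREB1 on 5hmC and 0.744 to 0.907 for the 9 pairs with it. Across the 17 TTGCGTAA probes it was 0.456 to 0.919 without CREB1 on 5hmC, and 0.108 to 0.473 with it. On CREB1 5hmC the TTGCGTAA means spanned 1.07 to 2.83, and on the CREB1 5mC array the values spanned 0.809 to 2.16. The part of the narrow range in the low correlations was not tested. Probes share array, scaling and base composition across groups, and these correlations are given without a test.

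The number of other cytosines in the probe went at most weakly with the level. The synthesised strand held 2 to 9 cytosines outside the site in TTACGCAA probes and 2 to 12 in TTGCGTAA probes. Spearman's rho of level with that number was -0.12 and -0.05 on CEBPB(V285A) 5mC for the 2 orientations, and 0.01 and 0.05 on C. Over all groups it lay between -0.19 and 0.15 for TTACGCAA and between -0.29 and 0.19 for TTGCGTAA probes. Few probes held a further 4-base core, TGAC or GTCA (CRE) in 3 TTACGCAA and 2 TTGCGTAA probes, TTGC or GCAA (C/EBP) in 0 and 2, and TTAC or GTAA (PAR) in 2 and 5. HK02455, 1 of the 3 strongest probes, holds such a PAR core just before the site.

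Related sites were set beside the hybrid. On CEBPB(V285A) 5mC arrays the TTACGCAA median of 37.6 ± 1.37 (mean ± SD of the array medians, n = 2) stood beside 32.3 ± 0.663 for 17 probes with the C/EBP palindrome TTGCGCAA, 34.6 ± 0.427 for 17 with the CRE and C/EBP hybrid TGACGCAA and 14.1 ± 1.00 for 18 with the PAR palindrome TTACGTAA. On C the same sites had 14.4 ± 4.29, 10.0 ± 1.06, 10.5 ± 0.429 and 35.4 ± 0.212. The PAR palindrome was thus the lowest of the 4 on 5mC and the highest on C. On 5hmC they had 10.1 ± 2.09, 7.81 ± 0.0215, 5.01 ± 0.744 and 11.9 ± 0.687. The site nearest to TTACGCAA differed between the 2 arrays. On replicate 1 it was the PAR palindrome (11.5 beside 11.6 for TTACGCAA). On replicate 2 it was the C/EBP palindrome (7.82 beside 8.66).

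In the other orientation, TTGCGTAA had 6.66 ± 0.547 on CEBPB(V285A) 5mC and 9.40 ± 0.912 on C, beside 3.46 ± 0.350 and 13.9 ± 1.76 for 18 probes with TTGCGTCA. On 5hmC, TTGCGTAA had 5.42 ± 1.98 and TTGCGTCA 1.27 ± 0.0125 for CEBPB(V285A), and 6.77 ± 0.987 and 1.13 ± 0.0318 for CEBPB. The pattern of CEBPB on 5hmC, higher at TTGCGTAA than at TTACGCAA, was not seen in the CRE and C/EBP hybrid, where TGACGCAA had 2.08 ± 1.03.

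On CREB1 5hmC arrays, TTACGCAA had 4.72 ± 0.440, TGACGCAA 12.6 ± 0.634, the C/EBP palindrome 2.50 ± 0.230 and the PAR palindrome 3.75 ± 0.301. On C they had 2.34 ± 0.0475, 3.86 ± 0.309, 1.28 ± 0.0216 and 5.36 ± 0.501. For CREB1(A297V) on C, TTACGCAA had 2.19 ± 0.127 and TTGCGTAA 2.04 ± 0.00752, between 1.29 ± 0.0127 for the C/EBP palindrome and 7.00 ± 0.232 for the PAR palindrome. The hybrid thus lay between its 2 parent palindromes in CREB1(A297V) on C. The sets hold different probes with different flanks and are compared as descriptions, with no test.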

How the data were processed

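Protein binding microarrays of 4 bZIP DNA-binding domains were analysed from the deposited spot files. Per the file headers, each held the median intensity of every spot and, in another column, that of the background around it, and both were used as deposited. The array maker's extraction steps, the scanner settings and the authors' own normalization are not given in the sources used here. The deposited Z-score matrix was not used. Spots were joined by probe name, since 4 arrays had another layout, and 1 probe with another linker was kept. Each intensity was divided by the array median and log2-transformed, with no background correction.

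Members were found by their letters in the listed sequence. Members, lists and tests were chosen with earlier results of these data known. limma 3.58.1 in R 4.3.3 fitted 1 coefficient per group to all 40330 probes and 21 arrays (11 residual degrees of freedom, eBayes with trend), with two-sided tests adjusted by Benjamini-Hochberg over all probes of a comparison and called under 0.05. Tested on simulated data, the fit recovered nearly all large changes and few small ones, so a member not called may still differ. A spot from 65000 upward counted as saturated.

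Named probes were, per orientation, the 3 highest and 2 lowest over the group means and, per comparison, the called members that rose most and those that fell most (up to 2 each way) whose groups did not overlap, plus members in counts of 5 or fewer. The probes of the end pairs were named for their sequence. Alternatives were normexp background correction (offset 50), quantile normalization, the 75th percentile as scale, a filter on dim probes, the replicate number as a block, the file-name run as a random block or alone, and leaving out each array. Deviations of same-numbered arrays from their group means correlated with a median of 0.198 over 36 pairs of groups (range -0.142 to 0.656). Of these correlations 21 were over 0.1, so same-numbered arrays often shared part of their deviations. The main fit held no term for this.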

Additional observations from a re-analysis of the deposited data

Results flagged for a closer look

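Of 25 values tested on the 4 arrays of CREB1(A297V) on 5hmC, 23 of named probes and the medians of both orientations, 1 had an array far from the others. HK18477, the strongest TTGCGTAA probe, was at 1.90, 2.66, 2.16 and 10.5 there, replicate 4 being the high one. Replicate 4 was also the highest at HK07234 (1.07, 1.68, 1.11 and 3.26) and HK09415 (1.30, 1.86, 1.18 and 3.67), which were not flagged. At HK17661 (2.05, 1.35, 1.28 and 1.56) replicate 4 was not the highest. Chance alone flags about 1 in 20 such groups of values. That array shared a run with the CEBPB(V285A) 5hmC arrays, on which HK18477 stood at 23.8 and 34.99, and the part of the run in the high value was not tested.

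The effect of 5hmC differed between CEBPB(V285A) and CREB1 at 12 hybrid probes by limma's interaction contrast, all lower in the mutant. Over all probes 1.78% were called higher and 6.5% lower. It differed between CREB1(A297V) and CREB1 at 8, all lower in the mutant and all TTACGCAA, where 1.35% of all probes were higher and 2.97% lower. The effect of 5mC differed between CEBPB(V285A) and CREB1 at 2, HK34124 and HK07000, both higher in the mutant. There 2.56% of all probes were called higher and 0.625% lower. In all these contrasts the run cannot be told apart from the groups, and the counts fell after quantile normalization, as given below.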

How the results depend on the processing

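None of the 29 comparisons of a named probe reversed its direction under the alternatives run. The direction of the other called members was not checked probe by probe. After quantile normalization the members called numbered 5 for CEBPB(V285A) 5mC against C and 0 for 5hmC against C, 1 for CREB1(A297V) 5hmC against C, 5 and 6 for CREB1 5mC and 5hmC against C. Between proteins they were 13 for CEBPB(V285A) and 3 for CREB1(A297V) against CREB1 on C, 1 and 4 on 5mC, and 10 for CREB1(A297V) on 5hmC. For the interactions with CREB1 they were 0 (5mC) and 2 (5hmC) in CEBPB(V285A) and 2 in CREB1(A297V) (5hmC). After normexp they were 6 for CEBPB(V285A) 5hmC against C, 3 for CREB1(A297V) 5hmC against C, 2 and 5 for CREB1(A297V) against CREB1 on C (1 higher, 1 lower) and 5mC (3 higher, 2 lower), 8 for CEBPB(V285A) against CEBPB, all higher, and 0 for the 5mC interaction in CEBPB(V285A). Scaling by the 75th percentile gave 2 for CREB1 5mC against C and 1 for the 5mC interaction in CEBPB(V285A). The replicate block gave 2 for CREB1 5mC against C, 3 for CREB1(A297V) against CREB1 on 5mC and 1 for the 5mC interaction in CREB1(A297V). It moved no other count of calls by over 1.5 times. The arrays of the shared run gave 1 for CREB1(A297V) 5mC and 1 for 5hmC against C, 5 for CREB1 5mC against C, 4 for CREB1(A297V) against CREB1 on 5mC and 1 for the 5mC interaction in CREB1(A297V). The cause was not tested. Calls over all probes also changed with the settings, as given above for CEBPB(V285A), and these counts are not set against them.

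Leaving out each array gave 11 to 13 members for CEBPB(V285A) 5mC and 4 to 11 for 5hmC against C, 0 to 0 for CREB1(A297V) 5mC and 0 to 1 for 5hmC, 0 to 1 for CREB1 5mC and 7 to 16 for 5hmC. Against CREB1, CEBPB(V285A) gave 25 to 32 on C, 25 to 29 on 5mC and 14 to 21 on 5hmC, CREB1(A297V) 0 to 1, 0 to 2 and 10 to 18, and CEBPB 13 to 18. CEBPB(V285A) against CEBPB gave 9 to 14. The interactions gave 0 to 3 (5mC) and 7 to 12 (5hmC) in CEBPB(V285A), and 0 to 0 and 3 to 10 in CREB1(A297V).

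Of 29 comparisons of a named probe, 20 kept their call after quantile normalization, 28 after normexp and 29 under the 75th percentile, the dim-probe filter and either block. The median log2 difference of all probes moved by up to 0.30 under normexp and -0.25 under the 75th percentile. Spots kept despite flags and the mean signal were not run, as neither column was at hand. Saturation limits the strongest probes from above, and signals near the local background limit CREB1(A297V) on 5mC and on 3 of its 4 5hmC arrays.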
